A study of Homo sapiens with 15 samples.

Results

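The genes described here build the nuclear pore complex or carry cargo through it. They were taken from a table of poly(A) site use in HEK293T cells, an established human embryonic kidney line, by symbol: every entry starting with NUP, IPO, XPO, TNPO, KPNA, KPNB or RANBP followed by a digit, with hyphenated symbols left out. The rule gave 46 of the 13056 genes in the table: 18 NUP, 7 IPO, 5 XPO, 3 TNPO, 6 KPNA, 7 RANBP and 0 KPNB genes. All 46 had a value in every library. RANBP9 and RANBP10 match the rule by name, but their products are known as subunits of the CTLH ubiquitin ligase complex and not as transport receptors.

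The 15 RNA sequencing libraries came from cells with 1 of 7 short hairpin RNAs. There were 2 libraries for each of the knockdowns shHDAC1, shPABPN1, shPCBP2, shSF3B4, shU2AF2, shZNF384, and 3 of shControl, all in the same cell line and with no other treatment in the labels. The targets are HDAC1, a histone deacetylase, PABPN1, the nuclear poly(A)-binding protein, PCBP2, which binds C-rich RNA, SF3B4, a subunit of the U2 snRNP, U2AF2, the larger U2AF subunit, which recognises the polypyrimidine tract before the end of an intron, and ZNF384, a zinc finger transcription factor. The labels name nuclear RNA and total RNA for every sample, and only the shControl library names carry the suffix nuc, whose meaning is not stated. Any difference between the knockdowns and shControl that this suffix may mark cannot be told apart from the hairpin, so each knockdown was also compared with the mean of the other 5 knockdowns. The labels do not say whether replicates were separate cultures, so the p-values measure the spread between these libraries.

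A pre-mRNA with several poly(A) sites can be cut at a proximal site, which gives a short 3′ untranslated region, or at a distal site, which gives a long one. The measure is PDUI, an index of how much the distal of a gene's poly(A) sites is used, given as a fraction: 1 stands for distal use alone and values near 0 for proximal use. PDUI gives the choice of end and not the amount of RNA. The hairpins' effect on their targets could therefore not be checked, and read depth is unknown because the table holds no counts.

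The nuclear pore complex is a ring-shaped channel in the nuclear envelope. Its scaffold is made of outer rings of Y-shaped complexes and an inner ring, its channel is lined with flexible FG-repeat proteins, and filaments and a basket extend to the cytoplasm and the nucleoplasm. Cargo crosses it on importins and exportins, which are loaded and unloaded through the GTPase Ran. Importin alpha adaptors link classical import cargo to importin beta, while the other members of the importin beta family bind their cargo directly.

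Of the 46 transcripts, 45 were found by identifier in GENCODE release 29 on GRCh38 (IPO5 was not), 17 of them in the same version, and 33 have another annotated transcript end inside the last exon at least 100 bases before their own. By annotation 40 of the 45 are coding and 1, of RANBP17, is marked for nonsense-mediated decay. The other 4, of NUP35, NUP42, NUP54 and NUP205, are marked as having a retained intron. The table does not hold the positions of the sites that PDUI compared, so the ends below are annotation and not the measured sites. The sequences shown are those of NUP37, NUP155, NUP50 and NUP107, the 4 genes called below whose last exon has both an annotated end of another transcript and the canonical hexamer AATAAA before each end, and the far end of IPO9, whose last exon is long. Each is the 30 bases up to the end, 5′ to 3′ on the gene's strand, from the 3′ untranslated region, with the last AATAAA of the window in capitals. The far end of NUP107 holds another AATAAA upstream of the marked copy, left in lower case.
NUP37, end of another transcript, chr12:102074197-102074226, minus strand: gcttttattaAATAAAatgttgatggtttg
NUP37, far end, chr12:102073103-102073132, minus strand: gtaaagattaAATAAAggtgaatgaaaata
NUP155, end of another transcript, chr5:37291838-37291867, minus strand: ctgtaaAATAAAaactcagctgggtccaga
NUP155, far end, chr5:37288137-37288166, minus strand: ttctcttaagAATAAAacttttttctaata
NUP50, end of another transcript, chr22:45185595-45185624, plus strand: taggaaacatgtAATAAAgtcatggaagag
NUP50, far end, chr22:45187986-45188015, plus strand: tgtgAATAAAtgaaaagtaaacaaaatccc
NUP107, end of another transcript, chr12:68742502-68742531, plus strand: agtttttAATAAAatatacttgttattagt
NUP107, far end, chr12:68745780-68745809, plus strand: ctttttccaaaaataaaaAATAAAaacatg
IPO9, far end, chr1:201884265-201884294, plus strand: gattaAATAAAgttaatataacacaaagca
In NUP37 the other end lies 1094 bases before the far end, in NUP155 3701 bases, in NUP50 2391 bases and in NUP107 3278 bases. Over the 45 matched transcripts the hexamer AATAAA, read on the gene's strand, stood in the last 30 bases of 26 (57.8%), and its variant ATTAAA, sought where AATAAA was missing, in 7 (15.6%). Over all 12704 matched transcripts of the table the shares were 50.4% and 12.5%. The median last exon was 1591 bases long in the 45 and 1372 bases in all matched transcripts. Across the genes, last exon length and mean PDUI had a Spearman correlation of 0.03 in the 45 and 0.15 in all matched transcripts, given as a description over genes of the same libraries. A hexamer match describes the letters in the window and is not a site shown to be used.

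**Figure D1:**
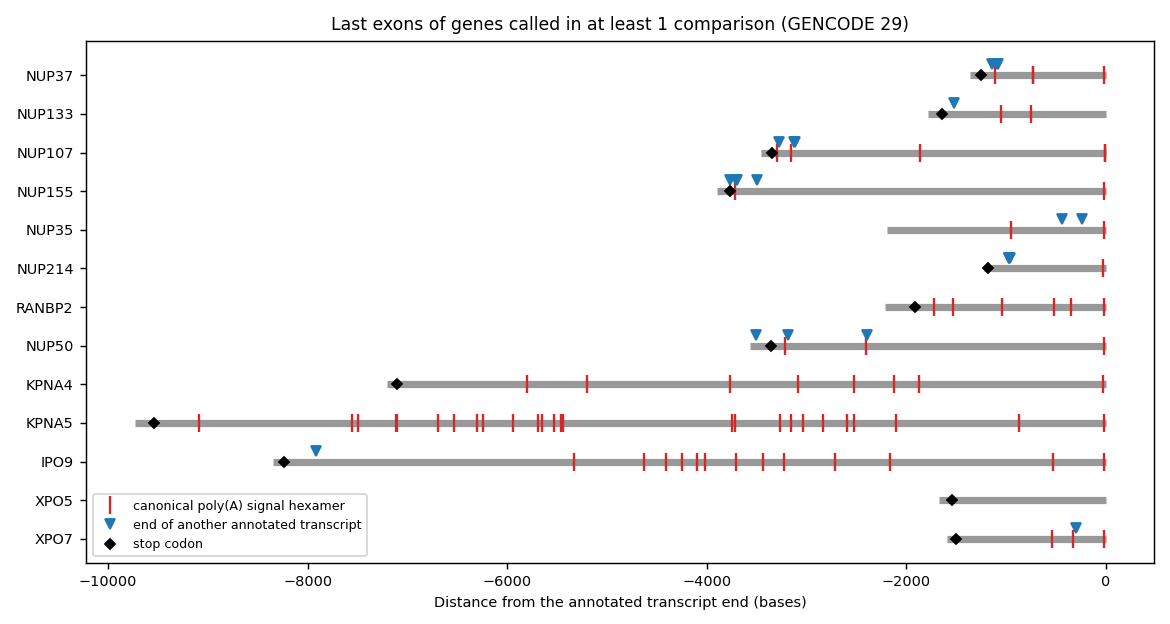
Last exons of 13 of the 14 genes called in at least 1 comparison (IPO5 has no matched transcript), drawn to scale as grey bars against the distance from the annotated transcript end in bases, with poly(A) signal hexamers as red ticks, ends of other annotated transcripts as blue triangles and stop codons as black diamonds. KPNA5, IPO9 and KPNA4 have the longest last exons of these genes, at 9731, 8351 and 7208 bases, and NUP214 has a short one of 1217 bases.

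The genes covered the whole scale of PDUI. KPNA6, an importin alpha adaptor, RANBP3, a cofactor of the exportin XPO1, and RANBP6, a relative of the importin IPO5, stood at 1 in all 15 libraries. IPO8 and RANBP10 came next by their shControl means, at 0.973 and 0.963. At the other end, NUP93, which holds the inner ring together, stood at 0.001 to 0.01 in every library, TNPO1, the import receptor of many hnRNP proteins, at 0.01 to 0.03, and KPNA5 at 0.001 to 0.03. NUP107 and NUP37 followed, with shControl means of 0.0367 and 0.09. Roles differed in how much of the scale they covered. The importin alpha adaptors alone ran in shControl from KPNA5 at 0.007 to KPNA6 at 1. Both CTLH subunits were high there, RANBP9 at 0.77 and RANBP10 at 0.963.

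The group means spread most in NUP155, by 0.495 between the lowest and the highest of the 7 groups, then in XPO5 by 0.29, NUP50 by 0.238, KPNA3 by 0.23 and IPO9 by 0.208. KPNA3, an importin alpha adaptor, was not called in any comparison, and its replicates lay far apart: it had 0.82 and 0.97 in shHDAC1, 0.78 and 0.98 in shSF3B4, 0.7 and 0.63 in shU2AF2, and 0.71, 0.67 and 0.88 in shControl. The mean over the 46 genes ran from 0.451 in shControl replicate 1 to 0.514 in a shSF3B4 library. The other shControl libraries had 0.489 and 0.501, and shControl replicate 1 was also the lowest library over the 11353 genes with complete values, at 0.522.

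**Figure D2:**
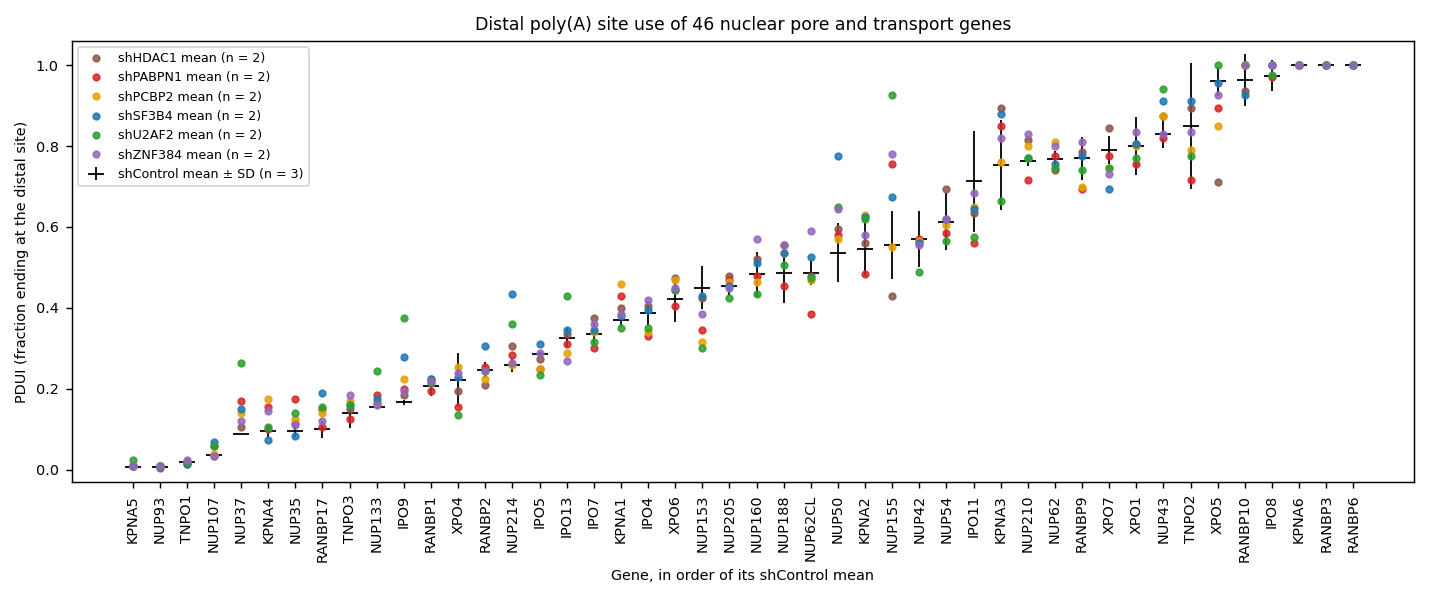
PDUI (fraction, vertical axis) of the 46 genes in the order of their shControl means, with a coloured point for the mean of each knockdown (n = 2) and a black bar with its error for the shControl mean ± SD (n = 3). NUP155 shows the widest spread of group means, and KPNA6, RANBP3 and RANBP6 stay at 1 in every group.

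Values were tested with limma on the fractions as deposited, across all genes, and a change was called at a Benjamini-Hochberg adjusted p under 0.05. The comparisons with shControl use the same 3 control libraries and are not independent of each other. Over the 6 of them, 15 of 276 differences were called, 14 toward distal and 1 toward proximal use, in 11 genes. That is 5.43% of the tests of the 46 genes and 23.9% of the genes, where 3.34% of the tests of all genes and 13.2% of the genes tested in all 6 were called. The distal share was 93.3% of the calls here and 82.7% of the calls over all genes. In all 15 calls the knockdown libraries lay outside the range of the shControl libraries. Since the test picks out such genes, this adds no support to the calls, and each count is read below against the share called among all genes.

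In shU2AF2 cells 6 of the 46 genes (13%) were called against shControl, where 7.27% of all tested genes were called. The 5 that rose were NUP37 and NUP133 of the Y complex, NUP155 of the inner ring, the importin IPO9 and the importin alpha adaptor KPNA5, and the importin IPO5 fell. In all genes 5.88% rose and 1.39% fell. The median difference over the 46 genes was 8e-04, and over all tested genes 0.0117.

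NUP37, a WD-repeat subunit of the Y complex, had 0.25 and 0.28 in the shU2AF2 libraries, against 0.09, 0.09 and 0.09 in shControl. The knockdown libraries were far above a control group without spread. The difference was 0.175 (SE 0.0182, limma adjusted p = 0.000431). IPO9, an importin known for carrying histones and actin, had 0.39 and 0.36 in shU2AF2, against 0.17, 0.17 and 0.16 in shControl. These were the highest values of IPO9 in the 15 libraries, and the difference was 0.208 (SE 0.0207, limma adjusted p = 0.000324). NUP133, a Y complex subunit at the tip of its stalk, had 0.25 and 0.24 in shU2AF2, against 0.15, 0.16 and 0.16 in shControl, a difference of 0.0883 (SE 0.0099, limma adjusted p = 0.000639). The groups were well apart in each of these 3 genes, and the calls held without any 1 library. After centring the libraries on their medians NUP133 was not called (0.065, limma adjusted p = 0.12). The last exon of NUP37 (chr12:102073103-102074467) overlaps the gene AC079907.1 on the opposite strand, and that of NUP133 (chr1:229440260-229442040) overlaps AL160004.1 on the same strand. Whether reads were counted by strand is not given in the sources used here, so reads of these neighbours cannot be told apart from those of NUP133, nor, without strand, from those of NUP37.

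NUP155, a scaffold protein that anchors the inner ring to the membrane, had 0.85 and 1 in shU2AF2, against 0.6, 0.61 and 0.46 in shControl. Both knockdown libraries were above all controls, but both groups were spread. The difference was 0.368 (SE 0.0676, limma adjusted p = 0.0103), the largest among the 15 calls, and without shU2AF2 replicate 2 it was 0.293 and not called (limma adjusted p = 0.096). KPNA5 had 0.03 and 0.02 in shU2AF2, against 0.001, 0.01 and 0.01 in shControl, a difference of 0.018 (SE 0.0037, limma adjusted p = 0.0176). These are steps of the 0.01 to which the table is rounded, and after centring the libraries on their medians the difference turned to −0.0053. Without shU2AF2 replicate 1 it was 0.013 and not called (limma adjusted p = 0.13).

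IPO5, an importin known for ribosomal proteins, was the gene that fell. It had 0.25 and 0.22 in shU2AF2, against 0.28, 0.29 and 0.29 in shControl, a difference of −0.0517 (SE 0.0108, limma adjusted p = 0.0197). The groups did not overlap, but the gap was 0.03. The call was lost without shU2AF2 replicate 2 (−0.0367, limma adjusted p = 0.163) and without shControl replicate 2 or 3 (limma adjusted p = 0.0547 and 0.0597), and with centred libraries (−0.075, limma adjusted p = 0.0938). Of the genes not called, the nearest to the threshold was NUP35, with a mean of 0.14 in shU2AF2, against 0.0967 in shControl (limma adjusted p = 0.051). NUP107 had 0.06 in shU2AF2, against 0.0367 in shControl (limma adjusted p = 0.0587), NUP153, a basket protein, 0.3 in shU2AF2, against 0.45 in shControl (limma adjusted p = 0.0541), and NUP43, a Y complex subunit, 0.94 in shU2AF2, against 0.83 in shControl (limma adjusted p = 0.0829).

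Against the mean of the other 5 knockdowns, shU2AF2 had 7 called genes, 6 higher and 1 lower (6.49% of all tested genes were called, 4.46% higher and 2.03% lower). With libraries centred on their medians there were 4, all higher. NUP37 averaged 0.265 in shU2AF2 and 0.137 in the other knockdowns (difference 0.128, limma adjusted p = 0.0012), IPO9 0.375 and 0.217 (0.158, limma adjusted p = 0.00077), and NUP133 0.245 and 0.17 (0.075, limma adjusted p = 0.00077). NUP155 at 0.925, against 0.638 (limma adjusted p = 0.0187), and KPNA5 at 0.025, against 0.01 (limma adjusted p = 0.0223), were also higher, and IPO5 at 0.235, against 0.275, was lower (limma adjusted p = 0.0336). All 6 genes called against shControl in shU2AF2 were thus also called against libraries without the nuc suffix, although the values of NUP155 and IPO5 overlapped with some of these. The seventh was XPO5, which exports precursor microRNAs. It had 1 and 1 in shU2AF2, against a mean of 0.867 in the other knockdowns (limma adjusted p = 0.0474), and its shControl values of 0.95, 0.93 and 1 were close to those of shU2AF2. Of these 7 calls, those of NUP37, IPO9 and NUP133 held without any 1 library. KPNA5 was lost without shU2AF2 replicate 1 (limma adjusted p = 0.229), NUP155 without shU2AF2 replicate 2 (limma adjusted p = 0.238), XPO5 in 12 and IPO5 in 9 of the 15 fits that left out 1 library (limma adjusted p up to 0.265 and 0.391).

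**Figure D3:**
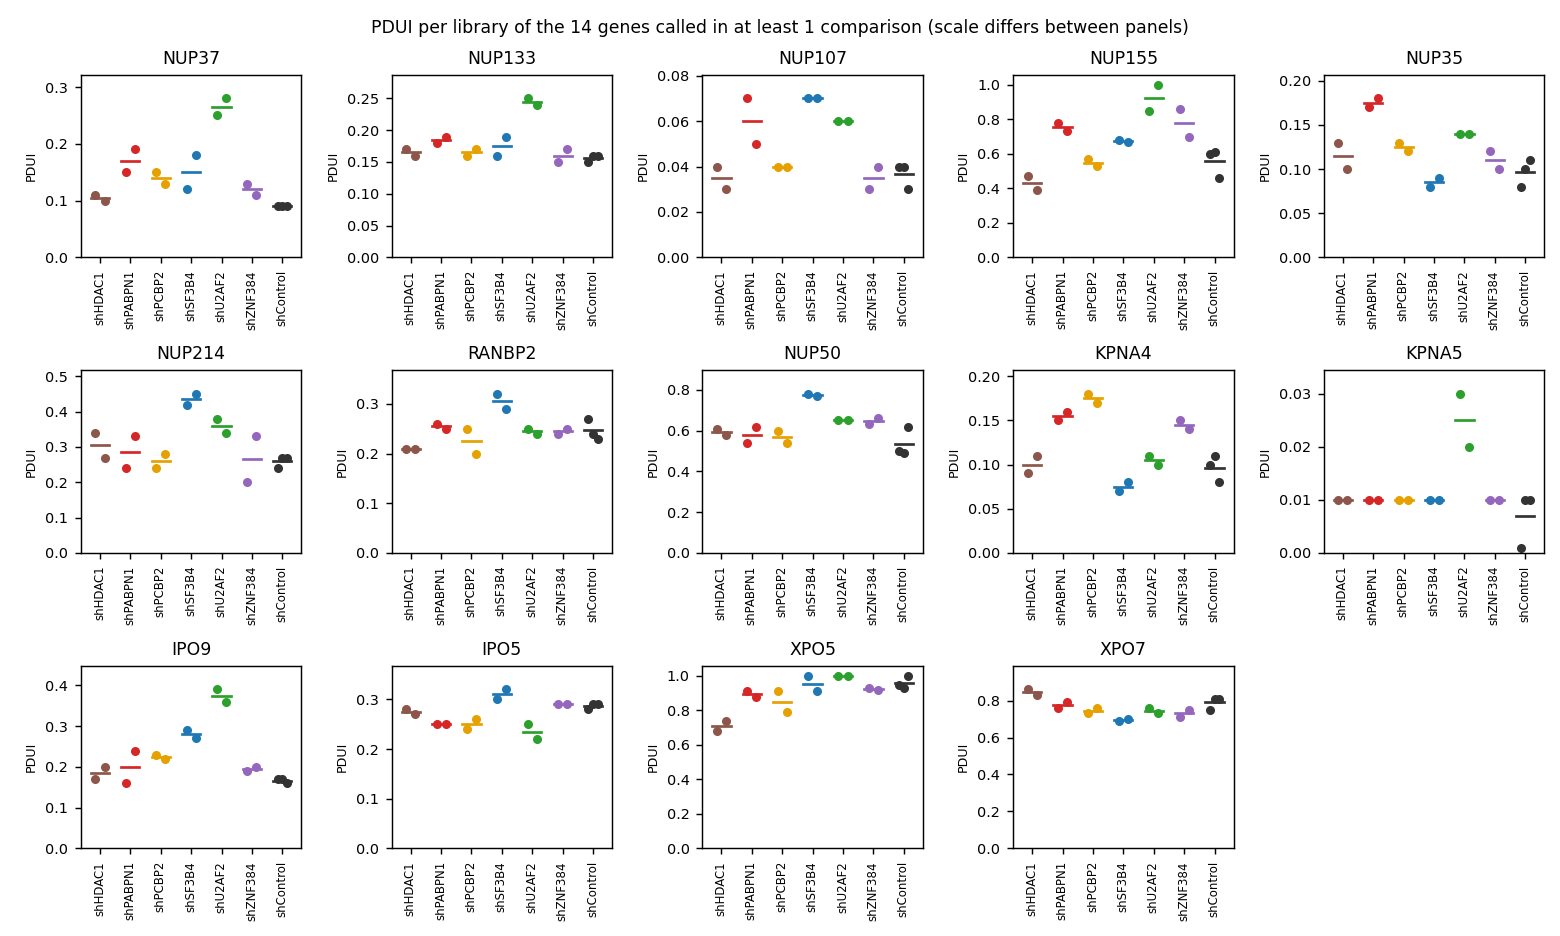
PDUI (fraction) per library of the 14 genes called in at least 1 comparison, with a point per library and a bar for the group mean, the 6 knockdowns (n = 2 each) left of shControl (n = 3), and a scale of its own for each gene. The shU2AF2 libraries are the highest in NUP37, NUP133 and IPO9, the shSF3B4 libraries the highest in NUP214 and NUP50, and the shHDAC1 libraries the lowest in XPO5.

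In shSF3B4 cells 4 of the 46 genes (8.7%) were called against shControl, all higher, where 5.42% of all tested genes were called, 4.26% higher and 1.16% lower. They sit in different places of the pathway: NUP50 in the basket, NUP214 on the cytoplasmic face, NUP107 in the Y complex and IPO9 among the importins. The median difference over the 46 genes was 0.0092, and over all tested genes 0.0117. The labels number the 2 shSF3B4 libraries in different ways, so they are named here by the numbers in the table's header.

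NUP50, a basket protein that helps to take import cargo off importin alpha, had 0.78 and 0.77 in shSF3B4, against 0.5, 0.49 and 0.62 in shControl. The shSF3B4 values were the highest of all 15 libraries. The difference was 0.238 (SE 0.045, limma adjusted p = 0.0158). NUP214, an FG-repeat protein of the cytoplasmic face that takes part in mRNA export, had 0.42 and 0.45 in shSF3B4, against 0.24, 0.27 and 0.27 in shControl, a difference of 0.175 (SE 0.0407, limma adjusted p = 0.0404). IPO9 had 0.29 and 0.27 in shSF3B4, against 0.17, 0.17 and 0.16 in shControl, a difference of 0.113 (SE 0.0207, limma adjusted p = 0.0136). In NUP214 and IPO9 the groups were far apart beside the spread within them. In NUP50 they did not overlap, but the shControl libraries were spread (SD 0.0723). NUP107, a Y complex subunit, had 0.07 and 0.07 in shSF3B4, against 0.04, 0.04 and 0.03 in shControl, a difference of 0.0333 (SE 0.0062, limma adjusted p = 0.0153), at a low level throughout. Without shSF3B4 library 1 none of these 4 was called (limma adjusted p = 0.0909 for NUP50, 0.128 for NUP214, 0.0977 for IPO9 and 0.082 for NUP107). Without shSF3B4 library 2 none was called either (limma adjusted p = 0.0801 for NUP50, 0.204 for NUP214, 0.0529 for IPO9 and 0.084 for NUP107), and such a fit takes the lone library to vary like the other groups. NUP50 was also lost without shControl replicate 2 (limma adjusted p = 0.0508), NUP107 without shControl replicate 3 (limma adjusted p = 0.0503), and NUP214 in 11 of the 15 fits that left out 1 library, each shControl replicate among them (limma adjusted p = 0.107 without replicate 1, 0.0857 without replicate 2 and 0.0889 without replicate 3). After such centring the difference of NUP107 was 0.005 (limma adjusted p = 0.945), and NUP50, NUP214 and IPO9 were not called either (limma adjusted p = 0.0662, 0.0938 and 0.195).

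Against the other 5 knockdowns, shSF3B4 had 7 called genes, 5 higher and 2 lower (6.99% of all tested genes were called, 3.59% higher and 3.39% lower). NUP50 at a mean of 0.775, against 0.608 (limma adjusted p = 0.031), NUP214 at 0.435, against 0.295 (limma adjusted p = 0.043), and NUP107 at 0.07, against 0.046 (limma adjusted p = 0.0265), were again higher, while IPO9 at 0.28, against 0.236, was not called. RANBP2, the giant cytoplasmic filament protein with SUMO ligase activity, had 0.32 and 0.29 in shSF3B4, against a mean of 0.236 in the other knockdowns (difference 0.069, limma adjusted p = 0.0181). IPO5 had 0.3 and 0.32, against a mean of 0.26 (difference 0.05, limma adjusted p = 0.0108). The 2 lower genes were KPNA4, with 0.07 and 0.08 against a mean of 0.136 (difference −0.061, limma adjusted p = 0.00207), and NUP35, with 0.08 and 0.09 against 0.133 (difference −0.048, limma adjusted p = 0.0159). Against shControl, neither KPNA4, at a mean of 0.075 in shSF3B4 and 0.0967 in shControl, nor NUP35, at 0.085 and 0.0967, was called. The call of KPNA4 held without any 1 library. Without shSF3B4 library 1 RANBP2 was lost (limma adjusted p = 0.215), without library 2 IPO5 (limma adjusted p = 0.136), and without either NUP35, NUP107, NUP50 and NUP214, where NUP50 and NUP214 were also lost in 6 and 9 of the other 13 such fits (limma adjusted p up to 0.206 and 0.272 over all 15). With libraries centred on their medians, 0 of the 7 were called in limma.

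In shPABPN1 cells 3 genes (6.52%) were called against shControl, all higher, where 4.72% of all tested genes were called, 3.99% higher and 0.725% lower. They were NUP35 of the inner ring, NUP37 of the Y complex and the adaptor KPNA4. The median difference was −0.0033 over the 46 genes and −0.0093 over all tested genes. NUP35, which joins the inner ring to the membrane, had 0.17 and 0.18 in shPABPN1, against 0.08, 0.1 and 0.11 in shControl. Every shPABPN1 value was above those of all other groups, and the difference was 0.0783 (SE 0.0112, limma adjusted p = 0.00437), a call that held without any 1 library. The transcript listed for NUP35 is annotated as one with a retained intron and has no coding end in GENCODE release 29. KPNA4, an adaptor known for carrying NF-kappa-B, had 0.15 and 0.16 in shPABPN1, against 0.1, 0.11 and 0.08 in shControl, a difference of 0.0583 (SE 0.0096, limma adjusted p = 0.0093). NUP37 had 0.15 and 0.19, against 0.09 in each shControl library, a difference of 0.08 (SE 0.0182, limma adjusted p = 0.0406). KPNA4 was lost without shPABPN1 replicate 2 (limma adjusted p = 0.0594). NUP37 was lost in 11 of the 15 fits that left out 1 library, with limma adjusted p = 0.0568 without shControl replicate 1, 0.0987 without replicate 2 and 0.109 without replicate 3, and up to 0.223 without shPABPN1 replicate 2. With centred libraries KPNA4 and NUP37 were not called (0.08 and 0.102, limma adjusted p = 0.105 and 0.0838).

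Against the other 5 knockdowns, shPABPN1 had 2 called genes, both higher (11.2% of all tested genes were called, 4.19% higher and 7.05% lower). NUP35 averaged 0.175 in shPABPN1 and 0.115 in the other knockdowns (difference 0.06, limma adjusted p = 0.00689), and KPNA4 0.155 and 0.12 (difference 0.035, limma adjusted p = 0.0297). NUP37 was not called there, with a mean of 0.17 in shPABPN1 and 0.156 in the other knockdowns. Without shPABPN1 replicate 2 both calls were lost (limma adjusted p = 0.062 for NUP35 and 0.179 for KPNA4), and KPNA4 also without shPABPN1 replicate 1 (limma adjusted p = 0.117), shPCBP2 replicate 2 (limma adjusted p = 0.0506), shSF3B4 library 1 (limma adjusted p = 0.0501) or shZNF384 replicate 2 (limma adjusted p = 0.0523).

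KPNA4 was the gene called in shPCBP2 and in shZNF384 cells against shControl, 1 of 46 (2.17%) in each, where 1.17% of all tested genes were called in shPCBP2 and 1.5% in shZNF384. Higher calls were 1.05% of all tested genes in shPCBP2 and 1.44% in shZNF384, and lower calls 0.121% and 0.0638%. It had 0.18 and 0.17 in shPCBP2, against 0.1, 0.11 and 0.08 in shControl, a difference of 0.0783 (limma adjusted p = 0.00964). In shZNF384 it had 0.15 and 0.14, a difference from shControl of 0.0483 (limma adjusted p = 0.0481). KPNA4 was thus above all shControl libraries in shPABPN1, shPCBP2 and shZNF384, but these 3 differences share the same controls. Its last exon (chr3:160494995-160502202) is 7208 bases long and holds 8 AATAAA hexamers. Without shPCBP2 replicate 1 the shPCBP2 call was lost (limma adjusted p = 0.0683), and the shZNF384 call was lost in 14 of the 15 fits that left out 1 library (limma adjusted p from 0.0596 to 0.22), shControl replicates 1 and 3 among the libraries left out (0.116 and 0.0995). After centring, the difference of KPNA4 was 0.045 in shPCBP2 (limma adjusted p = 0.593) and 0 in shZNF384 (limma adjusted p = 1). The median difference over the 46 genes was 0.0032 in shPCBP2, with 0.015 over all tested genes, and 0.0142 in shZNF384, with 0.0233 over all tested genes.

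Against the other 5 knockdowns, KPNA4 was again the gene called in shPCBP2, at a mean of 0.175, against 0.116 (difference 0.059, limma adjusted p = 0.0133; 1.39% of all tested genes were called, 0.724% higher and 0.663% lower). That call was lost without shPCBP2 replicate 1 (limma adjusted p = 0.13) or replicate 2 (limma adjusted p = 0.109). In shZNF384, 0 of the 46 genes were called in this contrast with limma, where 0.646% of all tested genes were called. KPNA1, an adaptor of the same family, had a mean of 0.46 in shPCBP2, against 0.37 in shControl, and was not called (limma adjusted p = 0.138).

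**Figure D4:**
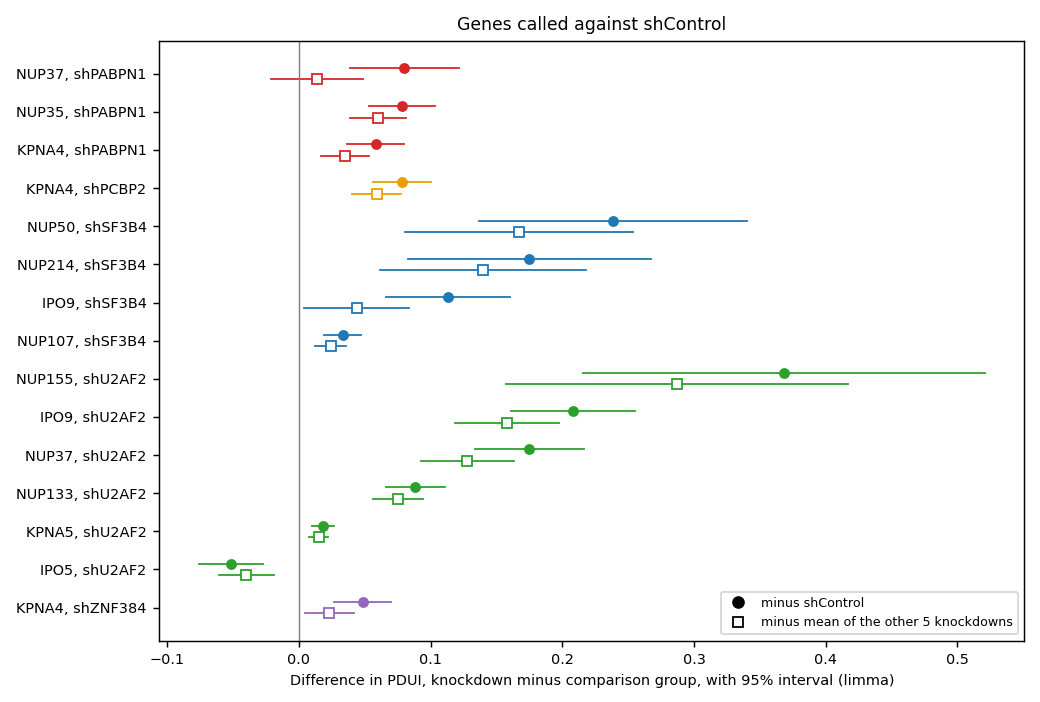
Differences in PDUI (fraction, horizontal axis) of the 15 calls against shControl, as knockdown minus shControl (filled circles) and knockdown minus the mean of the other 5 knockdowns (open squares), each with its 95% interval from limma. The intervals against the other knockdowns include 0 for NUP37 in shPABPN1 and lie above 0 for NUP37, IPO9, NUP133, NUP155 and KPNA5 in shU2AF2.

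In shHDAC1 cells 0 of the 46 genes were called against shControl with limma, where 0.0243% of all tested genes were called. XPO5 was the 1 gene with an unadjusted p under 0.05. It had 0.68 and 0.74 in shHDAC1, against 0.95, 0.93 and 1 in shControl, a difference of −0.25 (95% interval −0.338 to −0.162, limma adjusted p = 0.108). Both shHDAC1 values were below those of all other libraries. The median difference over the 46 genes was 0.0117, and over all tested genes 0.0033.

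Against the other 5 knockdowns, shHDAC1 had 4 called genes, 1 higher and 3 lower (5.84% of all tested genes were called, 0.55% higher and 5.29% lower). With libraries centred on their medians there were 2, both lower. XPO5 averaged 0.71 in shHDAC1 and 0.925 in the other knockdowns (difference −0.215, SE 0.033, limma adjusted p = 0.00674). NUP155 had 0.47 and 0.39 in shHDAC1, against a mean of 0.737 (difference −0.307, limma adjusted p = 0.0148), and NUP37 had 0.11 and 0.1, against a mean of 0.169 (difference −0.064, limma adjusted p = 0.0451). Both genes were high in shU2AF2, which is among the other knockdowns. The shHDAC1 values of NUP37 were above the 0.09 of each shControl library. They also touched the other knockdowns, since shZNF384 replicate 2 had 0.11. XPO7, an exportin of broad cargo, had 0.86 and 0.83 in shHDAC1, against a mean of 0.738 (difference 0.107, limma adjusted p = 0.0335), and 0.75, 0.81 and 0.81 in shControl. On the arcsine square root scale XPO5, NUP155 and XPO7 were lost (limma adjusted p = 0.0527, 0.0625 and 0.0576). XPO5 was also lost without shHDAC1 replicate 1 (difference −0.185). NUP155 was lost without shHDAC1 replicate 1 or 2 (limma adjusted p = 0.088 and 0.169), NUP37 in 11 and XPO7 in 8 of the 15 fits that left out 1 library (limma adjusted p up to 0.286 and 0.299).

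When the mean of all 6 knockdowns was set against shControl, IPO9 and NUP37 were called, both higher (3.4% of all tested genes were called, 3.11% higher). IPO9 averaged 0.243 over the knockdowns and 0.167 in shControl (difference 0.0767, limma adjusted p = 0.0241), and NUP37 0.158 and 0.09 (difference 0.0683, limma adjusted p = 0.0228). In every knockdown library NUP37 was above all 3 shControl values, from 0.1 to 0.28. Both calls were lost without shControl replicate 1 (limma adjusted p = 0.0945 for IPO9 and 0.0973 for NUP37), replicate 2 (0.0865 and 0.0878) or replicate 3 (0.117 and 0.1). The suffix in the shControl library names cannot be told apart from the control hairpin in this contrast.

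A moderated F-test in limma among the 6 knockdowns, which leaves shControl out of the contrast, called 9 of the 46 genes (19.6%), where 12.9% of all tested genes were called. They were KPNA4 (adjusted p = 0.00154), IPO9 (0.00306), NUP133 (0.00492), NUP37 (0.0058), NUP35 (0.0122), IPO5 (0.0148), XPO5 (0.0154), NUP155 (0.0155) and NUP107 (0.0218). The Y complex gave 3 of its 5 genes, NUP37, NUP133 and NUP107. Its other members, NUP43 and NUP160, were not called in any comparison. The inner ring gave NUP155 and NUP35 of 5, with NUP93, NUP188 and NUP205 not called. The importers of the importin beta family gave IPO9 and IPO5 of 11, the adaptors KPNA4 of 6 and the exportins XPO5 of 6.

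Over the 14 comparisons 14 of the 46 genes (30.4%) were called at least once and 32 in none, where 22.4% of all genes tested in the 14 were called at least once. The 3 genes of the central channel, NUP62, NUP54 and NUP62CL, were among the 32, with group means of 0.74 to 0.81 in NUP62, 0.565 to 0.695 in NUP54 and 0.385 to 0.59 in NUP62CL. NUP210, the glycoprotein of the membrane ring, had group means of 0.715 to 0.83. XPO1, the main exportin for proteins with a leucine-rich export signal, stood within 0.73 to 0.88 in all libraries and was not called. TNPO3 and TNPO1, which are among the receptors known for carrying splicing and RNA-binding proteins, were not called. TNPO3, for SR proteins, had group means of 0.125 to 0.185, and TNPO1 of 0.015 to 0.025. A gene that misses the threshold is not shown to be unaffected, least of all one near 0 or 1, where the scale leaves no room on 1 side.

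Genes of the same pathway with other names were counted beside the 46. The shares of all tested genes called against shControl, given above for each knockdown, stand beside their counts: 4.72% in shPABPN1, 5.42% in shSF3B4 and 7.27% in shU2AF2. Of 12 further genes in the table, listed here as pore or pore-associated proteins, 2 rose in shPABPN1 against shControl, SENP2 and TMEM33. Both also rose in shPCBP2 against the same controls, and SENP2 fell in shSF3B4. SENP2, a SUMO protease at the basket, averaged 0.38 ± 0.0141 in shPABPN1 (SD, n = 2) and 0.203 ± 0.0252 in shControl (SD, n = 3; limma adjusted p = 0.000577), and 0.13 in shSF3B4 (limma adjusted p = 0.0404). In shU2AF2, 11 of the 12 were tested: SENP2 rose to 0.29 (limma adjusted p = 0.0145), and NDC1, an anchor of the pore in the membrane, fell to 0.645, against 0.843 in shControl (limma adjusted p = 0.0495). In shHDAC1 and shZNF384, 0 of the 12 were called with limma. Of these calls, set against the other 5 knockdowns, SENP2 was again called higher in shPABPN1 (0.149, limma adjusted p = 0.000589) and lower in shSF3B4 (−0.151, limma adjusted p = 0.000346), TMEM33 higher in shPABPN1 (0.155, limma adjusted p = 0.00785) and NDC1 lower in shU2AF2 (−0.226, limma adjusted p = 0.0153). The shPCBP2 calls of SENP2 and TMEM33 and the shU2AF2 call of SENP2 were not made in that contrast.

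Among 15 genes of the Ran cycle and of carriers with other names, 3 were called in shPABPN1 against shControl and 1 each in shSF3B4, shU2AF2 and shZNF384, where 1.5% of all tested genes were called in shZNF384. At 1 of 15, the counts in shSF3B4 and shU2AF2 are near the shares over all genes. NUTF2, which brings Ran back into the nucleus, averaged 0.43 in shPABPN1, against 0.17 in shControl (limma adjusted p = 0.000125), and NXF1, the main mRNA export receptor, was the 1 that fell there, to 0.39, against 0.52 in shControl (limma adjusted p = 0.0158). RAN itself was low throughout and rose to 0.115 in shSF3B4 (limma adjusted p = 9.34e-05), 0.085 in shU2AF2 (limma adjusted p = 0.00436) and 0.08 in shZNF384 (limma adjusted p = 0.0459), against 0.06 in shControl (SD 0). The differences of 0.025 in shU2AF2 and 0.02 in shZNF384 are a few steps of the 0.01 to which values are rounded. Of the genes named here, NUTF2 and NXF1 were called in shPABPN1 against the other 5 knockdowns too (0.268 and −0.132, limma adjusted p = 4.99e-05 and 0.00595), and RAN in shSF3B4 and shU2AF2 (0.05 and 0.014, limma adjusted p = 4.45e-05 and 0.0388) but not in shZNF384. RAN was called lower in that contrast in shHDAC1, shPABPN1 and shPCBP2 (−0.028, −0.016 and −0.028, limma adjusted p = 0.00239, 0.0199 and 0.00753).

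Of 19 genes of the nuclear envelope and lamina in the table, SUN1, which links the envelope to the cytoskeleton, rose in 4 comparisons that share the controls: to 0.595 in shPABPN1 (limma adjusted p = 0.0313), 0.61 in shSF3B4 (limma adjusted p = 0.0178), 0.665 in shU2AF2 (limma adjusted p = 0.00269) and 0.61 in shZNF384 (limma adjusted p = 0.045), against 0.453 in shControl. LBR, the lamin B receptor, and TMPO, a lamina-associated protein, fell in shU2AF2, to 0.505 and 0.875, against 0.643 and 0.997 in shControl (limma adjusted p = 0.0143 and 0.02). The other genes of this list were not called against shControl where tested, and SYNE3 was not tested in shSF3B4 and shU2AF2. Called against shControl were thus 1 of 19 tested in shPABPN1, 1 of 18 in shSF3B4, 3 of 18 in shU2AF2 and 1 of 19 in shZNF384. The shares over all tested genes were 4.72%, 5.42%, 7.27% and 1.5%. At 1 gene each, the counts in shPABPN1 and shSF3B4 are near these shares. In the contrast with the other 5 knockdowns, SUN1 was called higher in shU2AF2 alone (0.104, limma adjusted p = 0.047) and lower in shHDAC1 (−0.202, limma adjusted p = 0.00293). TMPO was again called lower in shU2AF2 there (−0.105, limma adjusted p = 0.0215). LBR was not called in shU2AF2 in that contrast, but was called higher in shHDAC1 (0.105, limma adjusted p = 0.0304). BANF1 and EMD of the same list were called lower in shPABPN1 (−0.122 and −0.032, limma adjusted p = 0.0233 and 0.0195). In that contrast 2 of 18 tested genes were called in each of shHDAC1, shPABPN1 and shU2AF2. The shares over all tested genes were 5.84%, 11.2% and 6.49%, so the count in shPABPN1 is near its share.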

How the data were processed

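The authors deposited 1 table with a PDUI fraction per gene and library, with 2 decimals and 1287 entries at 0.001. The build is hg38, per the submitters' processing notes. The sources used here do not give the aligner, the program behind the values, the annotation or the strand setting. Libraries were grouped by their titles. Titles and library names number the shSF3B4 replicates differently, so those columns were assigned to the group. Fractions entered limma 3.58.1 (R 4.3.3) as deposited, with no pseudocount and 1 mean per group for all 15 libraries, and eBayes with a trend (8 residual and 1.06 prior degrees of freedom). The 6 contrasts with shControl, 6 with the other knockdowns, their common mean and an F-test made 14 comparisons. A gene was tested with values in all knockdown libraries of the contrast and, where the contrast included shControl, in at least 2 shControl libraries. P-values are two-sided and adjusted by Benjamini-Hochberg over all genes tested. Each library lacked 1.37% to 4.49% of the genes. Genes named with values are all those called in any comparison and the 5 with the highest, the lowest and the most widely spread group means. Genes outside this rule, such as KPNA1, NUP153, NUP43, XPO1 and the channel genes, were named after their values were seen. The genes and lists were chosen with earlier results of these data known. In the lists, 1 gene of the Ran cycle and carriers is not reported here and was left out of its counts. Last exons and ends come from GENCODE release 29 on GRCh38, matched by transcript identifier. The code was tested on simulated data. Alternatives are described below.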

Additional observations from a re-analysis of the deposited data

How the results depend on the processing

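The calls of IPO9 and NUP37 in shU2AF2 against shControl held in all 21 alternatives, with differences of 0.185 to 0.223 and 0.152 to 0.19 (the arcsine scale aside). NUP133 in shU2AF2 and NUP35 in shPABPN1 held in 20 of 21. Other calls depended on the settings. The counts in this section cover the pore and transport genes alone, without the shares called among all genes under each setting. Whether a lost call is particular to these genes or shared by the whole table is therefore not shown. With libraries centred on their medians, the genes called against shControl numbered 1 in shPABPN1 and 0 in shPCBP2, shSF3B4 and shZNF384. Of the shU2AF2 calls, IPO9, NUP37 and NUP155 stayed after centring (limma adjusted p = 0.00526, 0.0138 and 0.04). IPO5 was lost (limma adjusted p = 0.0938), and KPNA5 turned to −0.0053 (limma adjusted p = 0.918). NUP133 in shU2AF2 was then not called (limma adjusted p = 0.12). Against the other 5 knockdowns, centring gave 2 in shHDAC1, 0 in shPCBP2 and shSF3B4 and 4 in shU2AF2, and 0 for all 6 knockdowns against shControl. Centring shifts every gene of a library by 1 amount, so a difference smaller than it can turn by construction. With only the 2 groups compared in the fit, which leaves fewer libraries to estimate the spread, the counts were 0 in shPABPN1, shPCBP2 and shZNF384, 2 in shSF3B4 and 3 in shU2AF2. The arcsine square root scale gave 0 in shZNF384 and 1 in shHDAC1 against the other knockdowns. eBayes without a trend gave 0 in shZNF384. The cause of the changes on these last 2 settings was not tested.

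With the replicate number as a block (shSF3B4 could not be fitted, since its numbers differ between labels), the counts were 1 in shPABPN1, 0 in shPCBP2, 3 in shU2AF2 and 0 in shZNF384 against shControl, 1 in shPABPN1 and 0 in shPCBP2 against the other knockdowns, 0 for all 6 knockdowns and 5 in the F-test. Against the other knockdowns the block gave 3 in shHDAC1, 2 of them among the 4 reported (NUP37 and XPO7 were lost, limma adjusted p = 0.0545 and 0.121), and 6 in shU2AF2, 5 of them among the 7 reported (IPO5 and KPNA5 were lost, limma adjusted p = 0.171 and 0.0861). Deviations of same-numbered libraries correlated at −0.025 to 0.055 over 30 pairs, so the numbers give no sign of pairing. Between 2 knockdowns, replicates 1 and 2 give nearly the same correlation by construction, so the 30 pairs are not independent.

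Leaving out each of the 15 libraries in turn, the counts against shControl were 0 to 0 in shHDAC1, 2 to 4 in shPABPN1, 0 to 1 in shPCBP2, 0 to 4 in shSF3B4, 5 to 7 in shU2AF2 and 0 to 1 in shZNF384. Against the other knockdowns they were 0 to 5 in shHDAC1, 1 to 4 in shPABPN1, 0 to 1 in shPCBP2, 2 to 8 in shSF3B4, 4 to 7 in shU2AF2 and 0 to 1 in shZNF384, with 0 to 3 for all 6 knockdowns and 7 to 11 in the F-test. Without shSF3B4 library 2 its count against shControl was 0, and without library 1 it was 2, with 0 shared with the 4 reported. Without shHDAC1 replicate 1 or 2 its count against the other knockdowns was 0 or 1, and without shPABPN1 replicate 1 shZNF384 had 1. Without shControl replicate 1, which had the lowest mean PDUI, shPABPN1 had 4 against the other knockdowns. With 2 libraries per knockdown and unknown read depth, a gene that was not called may still differ.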
